A study of Mus musculus with 148 samples.

Results

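DNA modification was compared between the first 3 of 9 segments of the small intestine in adult mice. The samples are the P60 samples (postnatal day 60) whose source names place them in segment 1, 2 or 3, with 8 samples per segment and 24 of the 148 samples of the series. They came from untreated C57BL/6 mice on ordinary food and water (the labels spell the substrain C57BL/6MCrl, and C57BL/6NCrl in the growth protocol). Enterocytes, the absorptive epithelial cells, were released from each segment by chelation, and chosen regions of their DNA were captured with padlock probes after bisulfite treatment and sequenced. The labels call segments 1, 2 and 3 the proximal, medial and distal duodenum, whereas the study's text counts segment 3 as proximal jejunum. No RNA was measured in these files, so the labelled cell type could not be checked against marker genes. The preparations are bulk, so a shift in the mix of cells and a shift within each cell cannot be told apart at any site described here.

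Lactase, made by *Lct*, is the brush border enzyme that splits milk sugar, and it is made by the enterocytes of the villi. *Mcm6* lies just upstream of *Lct*, encodes a subunit of the replicative helicase, and holds in its introns the sites that set lactase persistence in people. A CpG carries a methyl or related group on its cytosine or does not, and bisulfite sequencing reads the share of DNA molecules that carry one without telling methyl from hydroxymethyl. The same probe set captured CpGs at imprinted genes, which are expressed from the maternal or the paternal copy alone and carry modification mainly on 1 of the copies, so that many of their CpGs lie near the middle of the scale. *Zdbf2*, *Peg13*, *Dlk1* and *Impact* are expressed from the paternal copy, and *Meg3*, a long noncoding RNA, from the maternal copy.

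The sites at which the segments differed are shown here first, because the values below refer to them. Each stretch is GRCm38 reference sequence, 5′ to 3′ on the strand given, in lower case with the CpGs in question in capitals.

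*Lct* exon 1, coding, chr1:128327999-128328120, minus strand: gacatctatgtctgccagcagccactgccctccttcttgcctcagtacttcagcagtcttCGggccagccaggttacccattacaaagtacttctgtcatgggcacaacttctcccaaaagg
*Lct* exon 8 into intron 8, chr1:128299794-128299923, minus strand: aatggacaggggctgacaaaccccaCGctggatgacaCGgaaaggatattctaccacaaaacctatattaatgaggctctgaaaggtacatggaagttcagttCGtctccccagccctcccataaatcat
*Mcm6* exon 4, coding, chr1:128351476-128351577, minus strand: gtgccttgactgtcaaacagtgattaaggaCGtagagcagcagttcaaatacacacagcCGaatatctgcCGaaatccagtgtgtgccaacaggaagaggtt
*Trappc9* intron, CpG 2 and then CpG 1, chr15:72801521-72801633, minus strand: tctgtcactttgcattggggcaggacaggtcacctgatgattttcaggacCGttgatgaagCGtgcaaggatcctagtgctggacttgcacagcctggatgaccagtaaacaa
*Trappc9* intron, CpG 3, chr15:72802156-72802277, minus strand: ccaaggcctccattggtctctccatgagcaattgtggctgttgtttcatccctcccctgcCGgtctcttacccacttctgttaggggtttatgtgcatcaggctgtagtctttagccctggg
Between *Dlk1* and *Meg3*, intergenic, chr12:109526270-109526386, plus strand: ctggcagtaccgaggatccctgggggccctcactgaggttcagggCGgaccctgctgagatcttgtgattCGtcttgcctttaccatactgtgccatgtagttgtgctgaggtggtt
Upstream of *Zdbf2*, intergenic, chr1:63255103-63255215, plus strand: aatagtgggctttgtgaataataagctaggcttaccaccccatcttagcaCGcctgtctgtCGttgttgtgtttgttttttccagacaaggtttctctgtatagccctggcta

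Percent modification is the number of reads that called a cytosine modified divided by all its reads, and each strand of a CpG counts as 1 cytosine. Reads summed over the cytosines of the *Lct*–*Mcm6* locus ranged from 15226624 to 49609730 per sample (median 20840768.5), and the median CpG cytosine of the locus was read 907 to 3275 times in a sample. Errors below are SDs over the 8 samples of a segment unless stated otherwise, and nothing in the labels says that the 8 came from 8 separate mice. Segment 1 replicates 1 and 4 have file names that differ by 1 added tag and were the most alike of the 28 pairs of that segment. They may be repeat libraries of 1 sample, and n = 8 is then too high by at least 1. The study's text counts fewer than 8 mice per segment in its own comparison along the P60 intestine. The excess may therefore be larger than 1, in any of the 3 segments. Averaged over the 630 locus cytosines read more than 30 times in all 24 samples, modification was 76.45% ± 0.633 in segment 1, 76.69% ± 0.628 in segment 2 and 76.92% ± 0.318 in segment 3. The difference between segments 3 and 1, +0.475 percentage points, did not pass a 2-sided exact permutation test (p = 0.079). Over 777 cytosines of the imprinted targets the means were 50.82%, 50.68% and 51.34%, and the difference between segments 3 and 1 was +0.526 points (exact permutation p = 0.055), whereas that between segments 3 and 2 was +0.662 points (exact permutation p = 0.022, the lowest of 9 such tests and not adjusted for their number). The mean percent modification of 9795 locus cytosines outside CpGs, read more than 30 times in all 24 samples, was 0.3724%, 0.3871% and 0.3724%. Over all such cytosines that a library itself read more than 30 times, segment 1 libraries had means of 0.3388% to 0.4352%. By that measure segment 2 replicates 1 and 2 were at 0.7185% and 0.657%, and segment 3 replicates 3 and 8 at 0.6311% and 0.6628%. Over the 9795 shared cytosines the highest library was at 0.4086%, 0.4186% and 0.3976% in segments 1, 2 and 3. The higher values of these libraries therefore come from cytosines outside the shared set.

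*Differences between segments 1 and 3*. The question addressed was which CpGs differ between the first and the last of these 3 segments. Of 1541 CpG cytosines tested (665 in the locus and 876 at imprinted genes), 5 had a Bonferroni-adjusted p under 0.01 in a quasi-binomial F test, or 0.324% of those tested. All 5 were less modified in segment 3, with differences of −9.59 to −17.6 points, and in all 5 the lowest sample of segment 1 lay above the highest sample of segment 3. One is in *Lct* exon 1, 3 are in an intron of *Trappc9* in the *Peg13* target, and 1 is in an intron of *Zdbf2*. At the more permissive Benjamini-Hochberg threshold of 0.05, 106 cytosines (6.88% of those tested) differed, 83 of them higher in segment 3 (5.39%) and 23 lower (1.49%). That count was 61 without segment 1 replicate 1, 66 without segment 1 replicate 4, 67 without segment 3 replicate 8 and 70 without segment 1 replicate 2, and it was 59 with the sequencing lane as a covariate. The samples of segments 1 and 3 did not overlap at 18 cytosines (1.17%), 10 higher and 8 lower in segment 3.

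The 106 cytosines were unevenly placed. *Lct* held 35 of them among 356 tested, 29 higher and 6 lower in segment 3, the 6 lower ones being in exon 1 and introns 1, 2 and 6. *Mcm6* held 8, or 3.94% of those tested in it, all higher. The *Zdbf2* target held 38, or 18.9% of those tested in it, 36 higher and 2 lower. The other imprinted targets held 24 among 675 tested, of which 8 of 83 at *Peg13* and *Trappc9* and 6 of 74 between *Dlk1* and *Meg3* were all lower, and 5 of 5 at *Impact* were all higher. These cytosines are not independent: they were read with 66 probes, and neighbours under 1 probe come from the same molecules. Where the opposite strand of a called cytosine was also tested, its difference had the same sign in 47 of 51. Some of these opposite strands were themselves called, so their CpGs are counted from both strands. Most of all CpGs tested on both strands, called or not, also had the same sign on both. Whether the share among called cytosines exceeds that background was not tested.

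**Figure D1:**
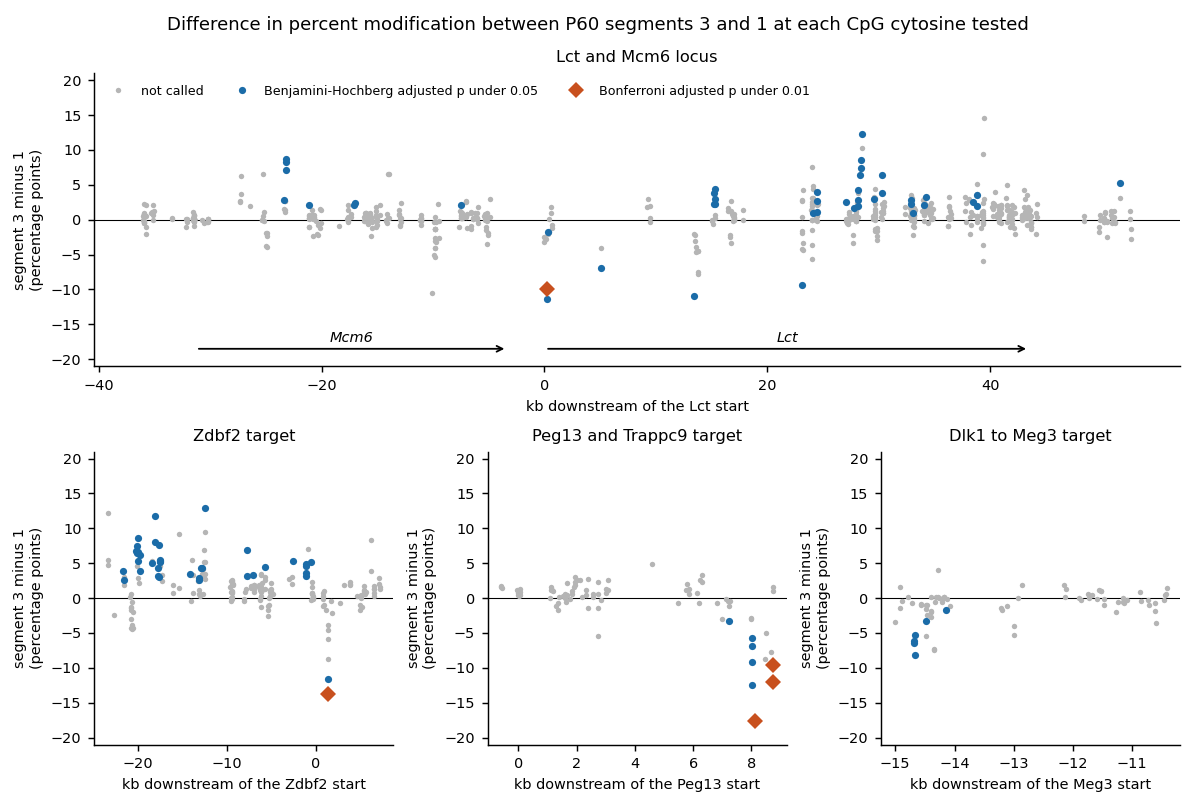
Difference in percent modification between segments 3 and 1 (percentage points) against distance from a gene start in kb, for the *Lct*–*Mcm6* locus (upper panel, arrows give the genes and their direction) and 3 imprinted targets (lower panels). Each point is 1 CpG cytosine. Orange diamonds mark the 5 past the Bonferroni threshold, all below 0, and blue points those past the Benjamini-Hochberg threshold alone; blue points upstream of *Zdbf2* lie above 0 and those far downstream of *Peg13* lie below it.

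*Lct* exon 1. The lowest p of all belonged to the CpG of the exon 1 sequence above, on the minus strand at chr1:128328060, in coding sequence near the *Lct* start. In segment 1 its modification had a lowest value of 78.96%, a median of 82.18% and a highest value of 86.51%. In segment 2 these were 66.15%, 75.02% and 78.81%, and in segment 3 they were 70.51%, 72.57% and 74.91%. Segment 1 thus lay wholly above both other segments, whereas segment 3 lay within the range of segment 2. The difference between segments 3 and 1 was −9.86 points (82.34% ± 2.39 against 72.48% ± 1.35, Bonferroni-adjusted p = 0.00024), and within sequencing lanes 5, 6 and 7 it was −10.2, −11.5 and −8.56 points. The opposite strand of the same CpG, captured by another probe, went from 75.31% ± 4.68 to 64% ± 2.49, a difference of −11.3 points (Benjamini-Hochberg-adjusted p = 0.0047). The 5 cytosines tested on either side of it and at it were all lower in segment 3, with differences of −1.77 to −11.3 points, and 3 of them were called. The stretch was chosen after the values were seen.

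In the first introns of *Lct*, the cytosine of lowest p in intron 1 (chr1:128323248, plus strand) fell from 39.88% ± 3.54 in segment 1 to 32.95% ± 4.25 and 32.98% ± 2.29 in segments 2 and 3 (difference between 3 and 1 −6.89 points, adjusted p = 0.019). Segments 1 and 3 did not overlap there, with a lowest value of 35.68% in segment 1 and a highest of 35.55% in segment 3. In intron 2, which held 16 measured cytosines of which 14 were lower in segment 3, the cytosine of lowest p (chr1:128314856, minus strand) went from 57.90% ± 6.18 through 49.70% ± 9.52 to 47.03% ± 5.34. Its difference of −10.9 points passed the Benjamini-Hochberg threshold (adjusted p = 0.023), did not pass it without segment 3 replicate 8 (adjusted p = 0.071) or with lane as a covariate (adjusted p = 0.089), and it was read only 103 times in the shallowest sample.

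*The rest of Lct*. From exon 3 to intron 13, every called cytosine of *Lct* but the 1 in intron 6 (−9.29 points) was more modified in segment 3. The densest group spans the end of exon 8 and the start of intron 8, where 13 of 13 cytosines tested were higher in segment 3, by 0.441 to 12.4 points with a median of 6.44, and 7 were called. This stretch was also chosen after the values were seen. At its cytosine of lowest p in intron 8 (chr1:128299820, minus strand) segment 1 ranged from 27.8% to 49.74% with a median of 37.33%, segment 2 from 47.82% to 54.95% with a median of 50.47%, and segment 3 from 49.72% to 55.8% with a median of 52.13%. The spread lay in segment 1, where replicates 7 and 8 (49.46% and 49.74%) stood at the level of the other segments and replicate 2 was lowest. The difference between segments 3 and 1 was 12.4 points (39.75% ± 7.78 against 52.11% ± 1.97, adjusted p = 0.016). Within lanes 5, 6 and 7 it was 10.4, 18.4 and 4.77 points. A pair of exonic CpGs read by the same probe differed by 8.57 and 7.36 points (adjusted p = 0.011 and 0.0097). Further named cytosines were higher in segment 3 by 6.35 points in intron 9 (adjusted p = 0.011) and by 2.95 points in exon 9 (adjusted p = 0.032), where 1 of 16 was called, whereas in exon 12 the lowest adjusted p was 0.065 at a difference of 2.37 points.

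*Mcm6*. The 8 called cytosines of *Mcm6* were in exons 4, 5 and 14 and intron 8. In exon 4, coding sequence, the 3 CpGs printed above were all higher in segment 3, by 7.13 to 8.68 points, and were read by 1 probe. At the one of lowest p (chr1:128351506, plus strand) the lowest, median and highest values were 67.6%, 77.16% and 79.58% in segment 1, 75.63%, 81.56% and 85.4% in segment 2, and 82.83%, 84.11% and 86.77% in segment 3. Segment 1 lay wholly below segment 3, and segment 2 overlapped both. The difference was 8.25 points (76.03% ± 3.91 against 84.28% ± 1.25, Bonferroni-adjusted p = 0.074, Benjamini-Hochberg-adjusted p = 0.0047). None of the 12 cytosines of exon 13 nor the 7 of intron 13 was called. At the exon 13 cytosine of lowest p (chr1:128338156, plus strand) the means were 39.73% ± 7.11, 38.70% ± 9.15 and 34.37% ± 5.39 (difference −5.36 points, adjusted p = 0.58), and 11 of the 12 were lower in segment 3 without passing the test. Around the *Mcm6* start and in intron 1 the named cytosines were nearly unmodified in every segment, at 0.3117% to 1.248% for 1 upstream of the start and 0.949% to 1.095% for 1 in intron 1, and neither was called.

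**Figure D2:**
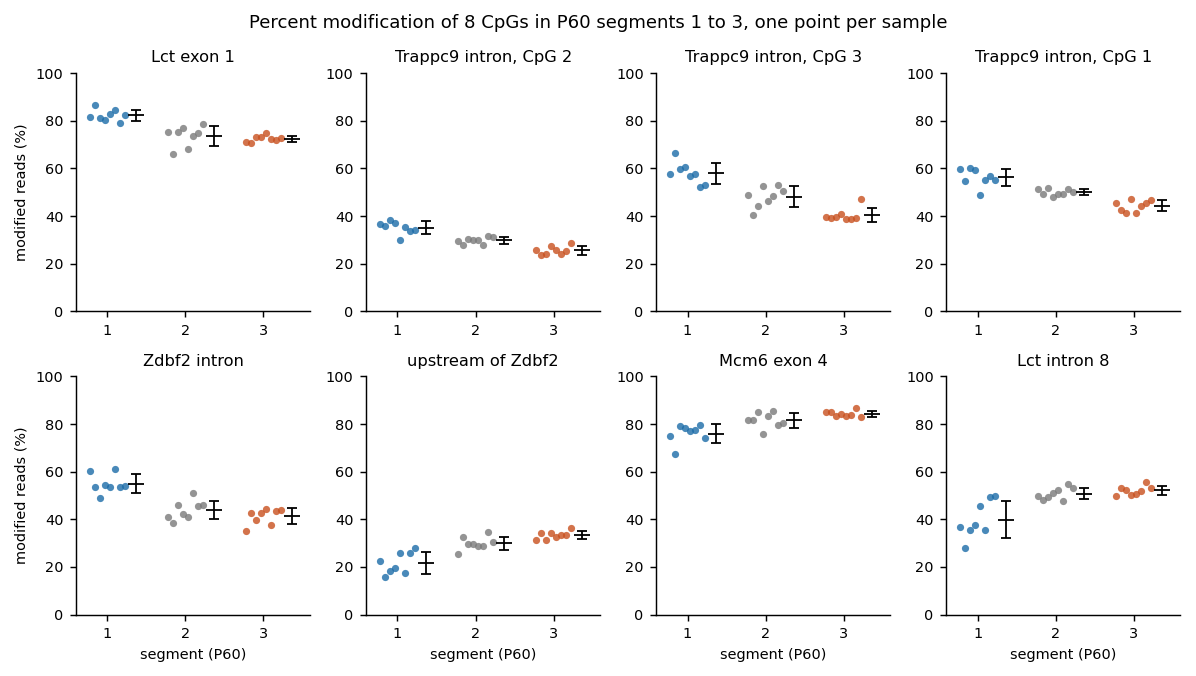
Percent modification (modified reads in percent, 0 to 100) of 8 CpG cytosines in P60 segments 1, 2 and 3. Each point is 1 sample (8 per segment, in replicate order), and the bars beside the points are the mean ± SD. Panels are the 5 cytosines past the Bonferroni threshold, which step down from segment 1 to 3, and 3 that step up; in most panels segment 2 sits between, and the points of segment 1 are widely spread in *Lct* intron 8.

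*The Peg13 and Trappc9 target*. *Peg13* is a noncoding RNA gene inside *Trappc9*, and the 3 cytosines past the Bonferroni threshold lie 8107 to 8752 bases downstream of its start, outside its promoter, in a *Trappc9* intron. CpG 3 (chr15:72802217, minus strand) had the largest difference of the 5. Its lowest, median and highest values were 52.06%, 57.65% and 66.33% in segment 1, 40.28%, 48.64% and 53.08% in segment 2, and 38.92%, 39.46% and 47.09% in segment 3. The groups of segments 1 and 3 were separate, although replicate 8 of segment 3 stood alone at 47.09%, the others being at most 40.85%. The difference was −17.6 points (58.02% ± 4.47 against 40.44% ± 2.76, Bonferroni-adjusted p = 0.0028). CpGs 1 and 2 (chr15:72801572 and chr15:72801583, minus strand) share 1 probe and are therefore read on the same molecules. CpG 1 fell from 56.26% ± 3.69 in segment 1 to 50.12% ± 1.38 in segment 2 and 44.29% ± 2.32 in segment 3 (Bonferroni-adjusted p = 0.0037), and CpG 2 from 35.17% ± 2.61 to 29.79% ± 1.39 and 25.58% ± 1.75 (Bonferroni-adjusted p = 0.0024). Of the 16 fits that each left out 1 library of segment 1 or 3, CpG 2 and the *Lct* exon 1 cytosine passed the threshold in all 16. CpG 3 missed it without segment 1 replicate 3 or 4, and CpG 1 without segment 1 replicate 1, 3, 4, 7 or 8 or segment 3 replicate 2, 6 or 7.

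On the plus strand of CpGs 1 and 2, where few reads were available (31 in the shallowest sample used, and some samples fell below that), the differences were +1.56 and +0.992 points with adjusted p = 0.98 and 0.97, so the change was not detectable on that strand at this depth. In the surrounding stretch, chosen after the values were seen and covering 7 probes, 15 of 17 cytosines were lower in segment 3 and 8 were called. Among these a pair of plus-strand CpGs fell from 11.46% to 5.694% and from 16.01% to 6.818%, and their minus strands from 13.73% to 6.837% and from 25.05% to 12.64%. The change did not extend over the whole target: the mean of its 76 cytosines differed by −0.567 points (exact permutation test, adjusted p = 0.27), and 53 of 83 tested were higher in segment 3. Within lanes 5, 6 and 7, CpG 3 differed by −17.7, −21.7 and −9.36 points. With the sequencing lane as a covariate the Bonferroni-adjusted p values of CpGs 1, 2 and 3 became 0.029, 0.031 and 0.056, so that of the 5 cytosines the one in *Lct* exon 1 alone stayed under 0.01.

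*Zdbf2*. The *Zdbf2* target is the largest imprinted target and held differences of both signs. Upstream of the gene, in an intergenic stretch chosen after the values were seen, 24 of 24 cytosines read with 9 probes were higher in segment 3, by 2.16 to 11.8 points with a median of 5.36, and 18 were called. The strongest (chr1:63255153, plus strand, 18112 bases upstream of the start) had lowest, median and highest values of 15.61%, 21.13% and 27.75% in segment 1, 25.56%, 29.65% and 34.73% in segment 2, and 31.24%, 33.45% and 36.49% in segment 3. Segments 1 and 3 were separate, and segment 2 overlapped each of them. The difference was 11.8 points (Bonferroni-adjusted p = 0.011). The second CpG of the printed sequence, 11 bases on, went from 12.19% ± 3.02 to 20.20% ± 1.88, and a cytosine 1063 bases upstream of the start from 15.81% ± 1.74 to 20.76% ± 1.09.

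At 1 probe inside the gene the sign was the opposite, whereas 144 of the 181 cytosines averaged over the whole target were higher in segment 3. In an intron stretch, also chosen after the values were seen, 6 of 6 cytosines read by 1 probe were lower in segment 3, and 2 were called. The one past the Bonferroni threshold (chr1:63274588, minus strand, 1323 bases downstream of the start) had lowest, median and highest values of 49.1%, 53.91% and 61.05% in segment 1, 38.46%, 44.1% and 50.88% in segment 2, and 35.21%, 42.77% and 44.34% in segment 3, a difference of −13.7 points (Bonferroni-adjusted p = 0.0078). Segment 1 lay above segment 3 in every sample but met segment 2. The site was read 56 times in its shallowest sample and 142 times in the median sample, less than the other 4 cytosines past the Bonferroni threshold. With more than 100 reads required, its adjusted p was 0.26, and it passed the threshold in 1 of the 16 fits that left out 1 library, that without segment 1 replicate 3.

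*Other imprinted targets*. Between *Dlk1* and *Meg3*, in the intergenic region that controls both, 8 of 8 cytosines of the stretch printed above and its flank (a window chosen after the values were seen) were lower in segment 3, with differences of −0.827 to −8.21 points, and 5 were called. The CpG at chr12:109526316 (minus strand) went from 72.86% ± 1.55 in segment 1 through 69.06% ± 2.63 to 66.44% ± 2.25, and that at chr12:109526341 (minus strand) from 77.92% ± 1.77 through 75.75% ± 1.38 to 72.56% ± 1.91. Both strands of both CpGs were called, with plus-strand differences of −6.10 and −8.21 points. At *Impact* the 5 cytosines of 1 probe were higher in segment 3 by 2.75 to 3.00 points. No cytosine was called in the targets of *Grb10*, *Peg3*, *Gnas*, *Plagl1*, *H19* and *Slc38a4*, among others.

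*Features as wholes*. Since single cytosines were named partly for their p, exons, introns, flanks and targets were also averaged over all of their cytosines with more than 30 reads in every sample and compared by 2-sided exact permutation tests, with Benjamini-Hochberg adjustment over 80 features. Between segments 1 and 3, 21 of 80 (26.2%) passed, 18 higher and 3 lower in segment 3, against a median difference of 0.444 points over all 80. *Lct* gave 15 of 27 features, 13 higher and 2 lower. *Mcm6* gave 2 of 29, both higher, and the imprinted targets 4 of 20, 3 higher and 1 lower. In size the called differences ran from 0.523 points in *Mcm6* exon 6 to 4.29 points in *Lct* intron 8. The count rests partly on single libraries: it was 10 without segment 1 replicate 2 or replicate 4, 11 without segment 1 replicate 1 or segment 3 replicate 4, and 9 without segment 3 replicate 7. With segment 1 replicates 1 and 4 averaged to 1 sample it was 11.

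No overlap between segments 1 and 3 was found in 3 features. *Lct* exon 1, over 9 cytosines of which 6 were lower in segment 3, ranged from 83.39% to 86.28% in segment 1 and from 79.95% to 83.03% in segment 3, and its means were 84.47% ± 1.2, 81.70% ± 1.06 and 81.51% ± 1.06 in segments 1, 2 and 3. *Mcm6* exon 4, over 9 cytosines of which all were higher in segment 3, went from 83.36% ± 2.50 through 85.50% ± 2.13 to 87.40% ± 0.781. *Lct* intron 15, over 14 cytosines none of which was called alone, went from 87.91% ± 0.439 through 88.39% ± 0.704 to 89.40% ± 0.460. The adjusted p of these 3 was 0.0041, the smallest an exact permutation test of 8 against 8 samples could give here being 0.00016 before adjustment.

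Of the remaining called features, *Lct* introns 8, 14, 9, 11, 13 and 3 were higher in segment 3 by 4.29, 2.12, 1.56, 1.64, 1.24 and 1.13 points, and *Lct* exons 3, 7, 8, 11, 12 and 17 by 1.28 to 2.79 points. *Lct* intron 2 was lower by 3.11 points (46% ± 2.72 against 42.89% ± 1.51, adjusted p = 0.048 from the exact permutation test). Among targets, *Impact* was higher by 2.92 points, *Commd1* and *Zrsr1* by 1.76 and *Zdbf2* by 1.62, and the region between *Dlk1* and *Meg3* was lower by 1.02. *Mcm6* exon 13 (36.03% ± 5.72 against 33.59% ± 3.95), intron 13 (50.15% ± 4.58 against 49.57% ± 3.05), intron 1 (8.885% ± 1.66 against 8.774% ± 1.68) and the 1000 bases around the *Mcm6* start (0.6044% ± 0.114 against 0.7066% ± 0.140) were not called.

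**Figure D3:**
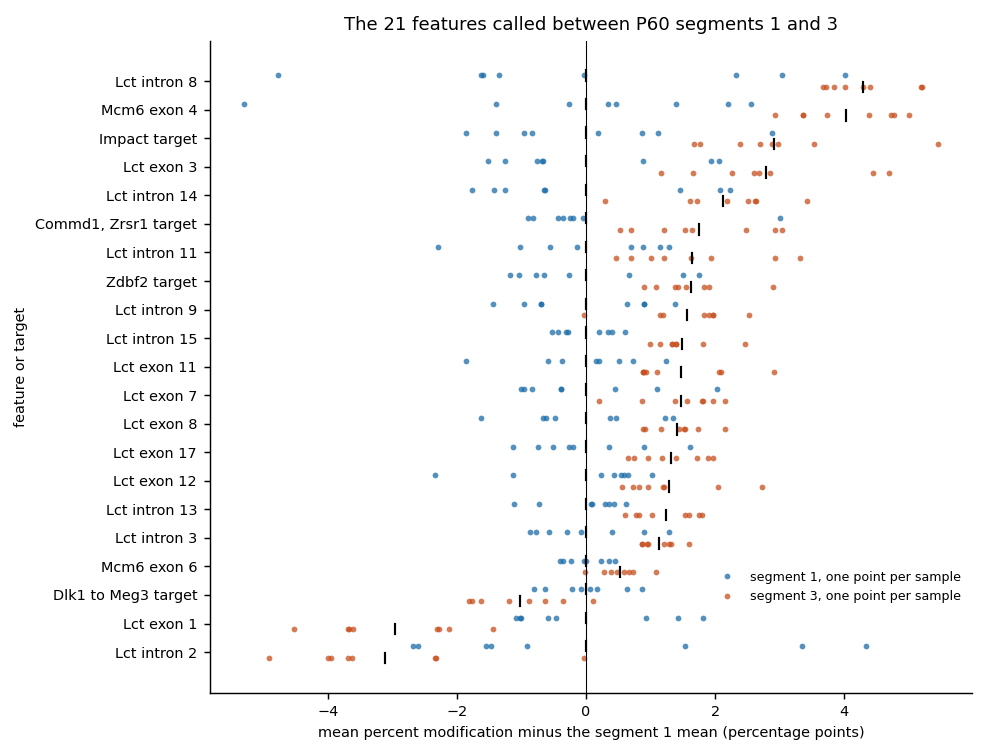
The 21 exons, introns and targets called between P60 segments 1 and 3. Each point is the mean percent modification of 1 sample over the feature minus the mean of segment 1 (percentage points), blue for segment 1 and orange for segment 3, and short black bars are the segment means. Bars of segment 3 run from −3.11 in *Lct* intron 2 to 4.29 in *Lct* intron 8, and the point clouds overlap in all features but *Lct* exon 1, *Mcm6* exon 4 and *Lct* intron 15.

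*Segment 2 as the step between*. Neither step alone gave a cytosine past the Bonferroni threshold. Between segments 1 and 2, 0 of 1532 (0%) passed it and 3 (0.196%) passed the Benjamini-Hochberg threshold. Between segments 2 and 3, 0 of 1544 (0%) and 1 (0.0648%) did so. An unadjusted p under 0.05 was found at 150 and 140 cytosines, and limma gave 13 and 0 calls by Benjamini-Hochberg adjustment. The 3 of the first step were CpG 2 of the *Trappc9* intron, the *Zdbf2* intron cytosine and 1 upstream of *Zdbf2* (chr1:63255642), and the 1 of the second step was CpG 1 of the *Trappc9* intron (adjusted p = 0.044). Of features, *Lct* exon 1 alone was called between segments 1 and 2 (1 of 80, 1.25%; −2.77 points), and none between segments 2 and 3 (0%), where 7 had an unadjusted p under 0.05.

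The mean of segment 2 lay between those of segments 1 and 3 at 96 of the 106 cytosines called between segments 1 and 3, beyond segment 3 at 9 and before segment 1 at 1. Over all 1532 cytosines tested in both comparisons it lay between at 694. These comparisons share samples, and a called difference leaves more room between its ends, so the counts are a description. In the median called cytosine, the step from segment 1 to 2 was 67.2% of the difference between segments 1 and 3, against 49.1% over all cytosines tested. Both steps start from the same segment 1 mean, so spread alone would put this share near the middle. The called cytosines were also picked for the larger step, so the shares too are a description. At the *Lct* exon 1 cytosine nearly all of the difference was present by segment 2, with −8.73 of −9.86 points. At CpG 3 of the *Trappc9* intron the first step was −9.93 and the second −7.65 points.

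*Segments 1 and 3 of milk-fed mice*. The same segments were taken from mice of postnatal day 90 given lactose-free milk (lac-, 6 samples per segment) or lactose-containing milk with added sucrose (LAC+, 7 per segment) in place of water for 60 days. Age, drink and sequencing lanes all differ from the P60 samples, so values are set side by side. In both milk groups the numbers in the titles of segment 1 samples form a run into which no segment 3 sample of that group falls. If these numbers mark library batches, segment and batch cannot be told apart in the milk-fed mice. Of the 106 cytosines called in P60, the difference between segments 3 and 1 had the same sign in 102 of the lac- set and 91 of the LAC+ set, against 61.1% and 57.8% of all cytosines tested in both. An unadjusted p under 0.05 with the same sign was found at 52 and 39 of them, against 17% and 16.7% of all cytosines with such a p in either direction, and with the opposite sign at 0 and 3. Leaving out any 1 milk-fed library, the same sign held at 99 to 104 and at 84 to 95.

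At the *Lct* exon 1 cytosine the lac- samples went from 80.86% ± 2.43 to 72.81% ± 8.43 (SD, n = 6) and the LAC+ samples from 82.09% ± 1.45 to 76.85% ± 7.95 (SD, n = 7). The larger spread lay in segment 3, from 64.89% to 86.39% in lac- and from 65.38% to 87.78% in LAC+ samples, so that segments overlapped in both. At CpG 3 of the *Trappc9* intron the means went from 59.78% to 40.42% in lac- and from 59.57% to 48% in LAC+ samples. The lac- library labelled segment 3 replicate 4 stood apart there at 20.91%, the other lac- libraries of that segment being at 39.82% or more, and at CpG 1 it was at 18.23% against 43.25% or more. Its values lay near those of distal P60 segments, 20.91% at CpG 3 beside a P60 segment 9 mean of 21.01%, and 73.58% at the named *Mcm6* exon 13 cytosine beside a P60 segment 7 mean of 73.52%, and whether its label is right was not tested. The LAC+ library labelled segment 3 replicate 7 held the highest value of its group at CpG 3 (57.63%) and at *Lct* exon 1 (87.78%), and it was at 89.99% at the *Mcm6* exon 13 cytosine. Without the first library the lac- differences at CpG 3 and *Lct* exon 1 were −15.5 and −10.8 points instead of −19.4 and −8.05, and without the second the LAC+ differences were −13.2 and −7.06 instead of −11.6 and −5.23. Upstream of *Zdbf2*, at chr1:63255153, the differences were 9.29 points in lac- and 6.04 in LAC+ samples, and in *Mcm6* exon 4, at chr1:128351506, 11 and 6.95 points. At the *Zdbf2* intron cytosine (chr1:63274588), −13.7 points in P60, they were −2.68 points in lac- samples, with an unadjusted p of 0.77, and −6.47 in LAC+ samples, and the segments overlapped in both.

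Fitted alone, the lac- samples gave 0 of 1510 cytosines past either threshold (0%), with 17% at an unadjusted p under 0.05 in either direction. The LAC+ samples gave 3 of 1554 past Bonferroni (0.193%) and 24 past Benjamini-Hochberg (1.54%), with 16.7% at an unadjusted p under 0.05. These counts hang on single libraries: by Benjamini-Hochberg adjustment the lac- count became 18 without segment 1 replicate 6, 48 without segment 3 replicate 5 and 1 without segment 3 replicate 4, and the LAC+ count became 55 without segment 3 replicate 7 and 7 to 15 without segment 1 replicate 1, 2, 3, 4, 5 or 7 or segment 3 replicate 1, 2, 3 or 6. Of 78 features, 0 (0%) were called in lac- samples, where 22 had an unadjusted p under 0.05, and 5 (6.41%) in LAC+ samples. *Lct* intron 8 was among the latter, higher in segment 3 by 3.24 points, and by 4.22 points in lac- samples without passing. The sign of the P60 difference was kept by 57 and 52 of all 78 features in lac- and LAC+ samples. For the 27 *Lct* features these counts were 25 and 23, for the 27 *Mcm6* features 21 and 19, and for the 20 targets 8 and 9. *Impact*, higher in segment 3 by 2.92 points in P60, differed by +0.956 points in lac- and by −1.81 points in LAC+ samples, the target of *Commd1* and *Zrsr1*, +1.76 points in P60, by −0.747 and −1.25 points, and that of *Snrpn*, +2.77 points in P60 without passing, by −2.40 and −3.88 points. Whether these differences depend on the mice was not tested.

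**Figure D4:**
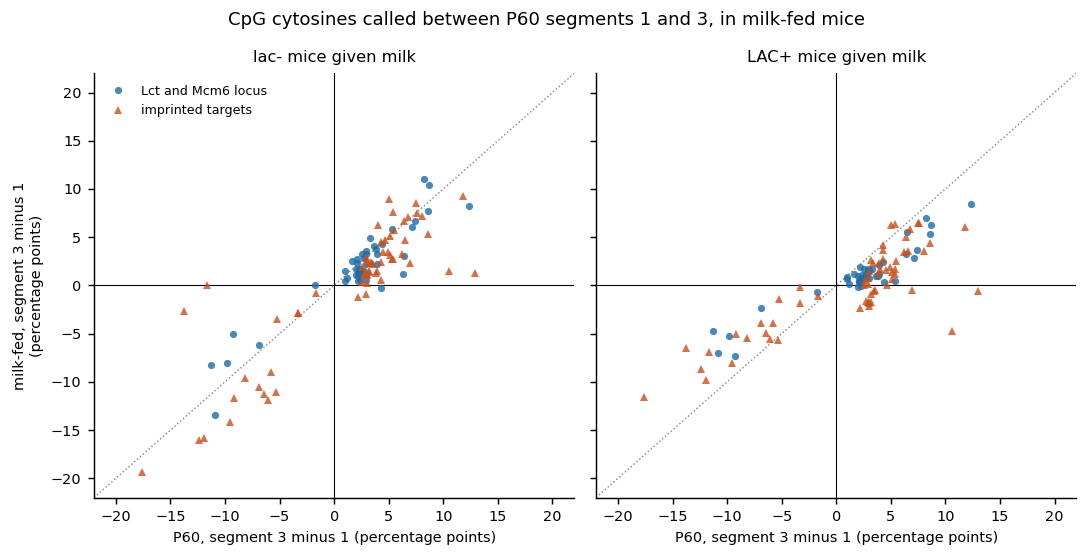
Difference between segments 3 and 1 in milk-fed mice (vertical axis) against that in P60 mice (horizontal axis), both in percentage points, for the 106 CpG cytosines called in P60. The left panel shows lac- and the right LAC+ mice, blue circles the *Lct*–*Mcm6* locus and orange triangles the imprinted targets, and the dotted line equal differences. Points in the upper right and lower left quadrants have the same sign in both, 102 of 106 in the left panel and 91 of 106 in the right.

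*The same cytosines further down the intestine*. Segments 4 to 9 of the P60 intestine (47 samples) were used to see where the differences of segments 1 to 3 go. Among 1523 cytosines tested over these 6 segments, 109 (7.16%) changed with a Bonferroni-adjusted p under 0.01. Of these, 56 locus cytosines had a higher level in segment 9, by a median of 20.5 points over segment 4, and 47 of the 56 were lower in segment 3 than in segment 1 (median difference over the 56 −2.15 points). Of the 594 locus cytosines tested in both comparisons that did not pass along segments 4 to 9, 159 were lower in segment 3 (median difference +0.507 points). Among 29 cytosines of the imprinted targets that were higher in segment 9, 11 were lower in segment 3 and 18 higher (median difference +0.337 points). Of the 56 locus cytosines, 5 were called between segments 1 and 3, a share near the 6.88% of all cytosines called in either direction. All 5 were lower in segment 3, whereas the whole locus held 6 cytosines called lower among 665 tested. The difference between these shares was not tested.

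The *Lct* exon 1 cytosine went from 82.34% in segment 1 to its lowest mean, 72.48%, in segment 3, and then rose to 76.89% in segment 4 and 90.28% in segment 9. The named cytosines of *Lct* intron 2 and intron 1 and that of the *Zdbf2* intron also fell and then rose, ending at 77.40%, 50.40% and 55.40%. The *Trappc9* cytosines kept falling, CpG 3 to 21.01% and CpG 1 to 23.20% in segment 9. The cytosines between *Dlk1* and *Meg3* were at 59.76% and 65.49% in segment 4 and at 58.53% and 60.09% in segment 9, and the second of them passed the test over segments 4 to 9. The cytosines of *Lct* intron 8 and *Mcm6* exon 4, which stepped up between segments 1 and 3, were at 49.34% and 88.70% in segment 9 without passing that test, whereas the cytosine at chr1:63255153 upstream of *Zdbf2* rose further, from 34.83% to 40.37%. Of the 23 cytosines called lower in segment 3, 10 changed along segments 4 to 9, and of the 83 called higher, 4 did. The difference between these shares was not tested. In *Mcm6* exon 13 and intron 13, where segments 1 to 3 did not differ beyond their spread, the named cytosines rose from 37.81% to 90.95% and from 51.19% to 83.98% between segments 4 and 9.

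**Figure D5:**
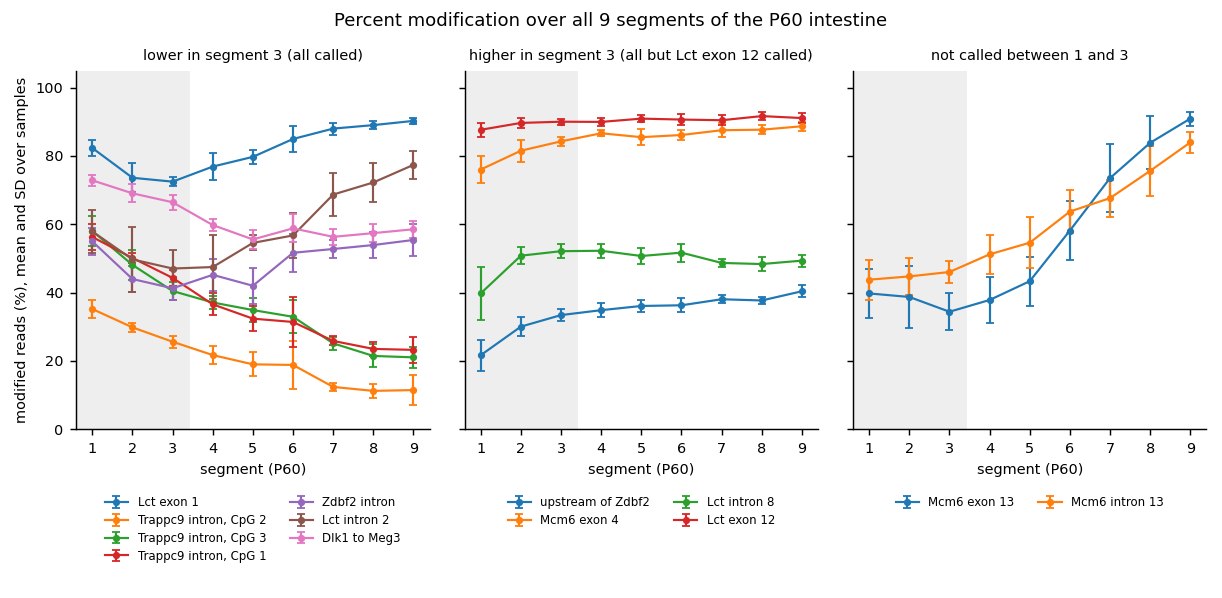
Percent modification (mean and SD over samples) of named CpG cytosines along all 9 segments of the P60 intestine, with segments 1 to 3 shaded. The left panel shows cytosines lower in segment 3 than in segment 1, among which *Lct* exon 1 and intron 2 turn upward after segment 3 while the *Trappc9* cytosines fall to 11.42%, 21.01% and 23.20% in segment 9. The middle panel shows cytosines higher in segment 3 (all called but that of *Lct* exon 12). The right panel shows those of *Mcm6* exon 13 and intron 13, not called between segments 1 and 3. Their main rise comes after segment 3.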

How the data were processed

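DNA modification was measured by bisulfite padlock sequencing in enterocytes of P60 segments 1, 2 and 3 (8 samples each). The authors trimmed reads with Trimmomatic 0.32, mapped them with Bismark to GRCm38/mm10, and deposited counts of modified and unmodified reads per cytosine and strand, with no normalization. Unconverted cytosines would count as modified, and without molecular identifiers reads are not independent molecules. From the counts, percent modification was computed at more than 30 reads. CpG cytosines with such reads in at least 3 samples per group were fitted with a quasi-binomial logistic model (1 dispersion per cytosine, F test), with Bonferroni (0.01) and Benjamini-Hochberg (0.05) adjustment over the whole table. Features with at least 3 cytosines were averaged per sample and compared by 2-sided exact permutation tests. P values measure the spread between these samples, which may be technical. Probes (604 of 604) were placed on the reference by their sequences. 

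Named cytosines were those past Bonferroni, the 8 of lowest p in each direction, and that of lowest p in *Lct* exons 1, 9 and 12, *Lct* introns 1, 2, 8 and 9, *Mcm6* exon 13, introns 1 and 13, and the *Mcm6* promoter; named features were those 11 (*Lct* intron 1 had too few cytosines for a mean), the 5 of lowest p and the imprinted targets. Stretches, other features and milk-fed libraries outside this rule were named after their values were seen. The members, lists and tests were chosen with earlier results of these data known. Alternatives were read minimums of 10 and 100, limma on log2 odds (pseudocount 0.5), lane, replicate blocks, summed strands, shared dispersion, pooled reads, and leaving out each library; leaving out milk-fed libraries was added after seeing the data. Segment 1 replicates 1 and 4 were the most alike of 28 pairs (mean chi-square per cytosine 3.01, median of the others 5.98) but differed by more than counting noise. This does not show separate samples, and the file name of replicate 4 is that of replicate 1 with a tag added. Both were kept, with summing or averaging them as an alternative. Lanes are those that file names give. The models were tested on simulated data. Python 3.11.15, NumPy 2.4.6, SciPy 1.17.1, pandas 2.3.3, Matplotlib 3.10.9, samtools 1.23.1, R 4.3.3 and limma 3.58.1 were used.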

Additional observations from a re-analysis of the deposited data

Results flagged for a closer look

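Over the named cytosines and features in segments 1, 2 and 3, a single sample stood apart from the rest by Dixon's gap test in 11 groups of 8 samples (5.39% of the groups tested), and chance flags about 1 in 20. Libraries labelled segment 3 replicate 8 gave 2 of these and 9 other libraries 1 each.

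Among cytosines with a called difference, CpG 3 of the *Trappc9* intron was 47.09% in segment 3 replicate 8 against 38.92% to 40.85% in the others, the cytosine upstream of *Zdbf2* at chr1:63255724 was 26.23% in segment 3 replicate 7 against 29.7% to 32.69%, and the *Mcm6* exon 4 cytosine was 67.6% in segment 1 replicate 2 against 74.28% to 79.58%. The *Mcm6* exon 13 cytosine was 59.5% in segment 2 replicate 7 against 31.97% to 41.95%.

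Among features, *Mcm6* exon 13 was 49.09% in segment 1 replicate 5 against 31.32% to 37.99%, *Mcm6* intron 1 was 12.54% in segment 3 replicate 8 against 7.125% to 9.318%, and *Mcm6* exon 4 was 80.38% in segment 2 replicate 4 against 85.33% to 86.99%. The target of *Commd1* and *Zrsr1* was 52.42% in segment 1 replicate 3 against 48.52% to 49.38%, that of *Airn* and *Igf2r* 66.04% in segment 1 replicate 6 against 60.59% to 63%, that of *Gnas* 31.27% in segment 2 replicate 2 against 36.7% to 41.17%, and that of *Peg10* and *Sgce* 45.36% in segment 2 replicate 1 against 35.67% to 40.04%.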

How the results depend on the processing

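Between segments 1 and 3 the 5 Bonferroni calls became 5 at read minimums of 10 and 100, 5 with segment 1 replicates 1 and 4 summed, 6 with limma, 7 with strands summed, 12 with 1 dispersion from all 24 samples, 1 with lane, and 106 by Benjamini-Hochberg adjustment. Leaving out 1 library gave 2 to 5, with 2 without segment 1 replicate 4 and 3 without segment 1 replicate 1 or 3 or segment 3 replicate 2. Between segments 1 and 2 the count of 0 became 3 by Benjamini-Hochberg adjustment and 2 with the dispersion of 24 samples, and 0 to 1 with 1 library left out. Between segments 2 and 3 it became 1 by Benjamini-Hochberg adjustment and 0 to 0 with 1 library left out. The 21 features became 18 and 21 at 10 and 100 reads, 24 with pooled reads, 17 within lanes, 11 with segment 1 replicates 1 and 4 averaged, and 9 to 24 with 1 library left out. The cytosines called in P60 with the same sign in milk-fed mice numbered 99 to 104 (lac-) and 84 to 95 (LAC+) with 1 library left out.

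The shared numbers met the bar for pairing, every pair's correlation over 0.1, in no comparison. Deviations of same-numbered samples of segments 1 and 3 correlated at −0.098 to 0.29, above 0.1 in 2 of 8 pairs, and 3 of 8 samples correlated best with their own number; runs of 9 title numbers gave −0.045 to 0.29, 2 of 7 and 1 of 7. Between segments 2 and 3 more pairs deviated together, 6 of 8 over 0.1 (up to 0.47) with 5 of 8 best by replicate number, and 5 of 8 with 4 of 8 best by runs. With the replicate number as a block, 1 cytosine was called between segments 1 and 3 (37 by Benjamini-Hochberg), 1 between segments 1 and 2 and 15 features. With runs as the block, 1 was called between segments 1 and 3, higher in segment 3 (6 by Benjamini-Hochberg), 2 between segments 2 and 3, and 0 features. The feature test by runs flips the signs of only 7 paired differences. Its smallest possible p gives a call after adjustment only if many features reach it together, so the 0 features decide nothing.

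Mean modification of the targets differed between segments 1 and 3 by 0.626 points (exact permutation p = 0.034) at 10 reads and 0.611 (p = 0.029) at 100, passing 0.05 where the main value did not. Modification outside CpGs turned to −0.000395 and −0.000589 points. The *Mcm6* intron 1 cytosine turned to −0.0223 with runs as the block and ranged from −0.087 to 0.097 with 1 library left out; the means of *Mcm6* intron 13 (0.097 with pooled reads, −1.17 to 0.774) and of *Mcm6* intron 1 (0.0219 with runs, −0.648 to 0.344) also changed sign, and none of these was called in any setting. Of the other settings of single cytosines, leaving aside libraries left out, 168 kept direction and status, called or not, and 39 lost the call. Of features, 148 kept both, 51 lost the call and 2 gained it. Those kept include cytosines and features not called at the main setting, which had no call to lose. The cause of the changes was not tested. Depth limits the *Zdbf2* intron and the plus strand of the *Trappc9* CpGs.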
